A study of Homo sapiens with 19 samples.

Results

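G3BP2 eCLIP of arsenite-treated cells was compared with G3BP2 eCLIP of untreated cells in SH-SY5Y, a human neuroblastoma line. In eCLIP, UV light crosslinks a protein to the RNA it touches, an antibody pulls the protein down, and the RNA fragments that stay attached are sequenced. The table listed 19942 protein-coding genes, with 1 value in each library, and the genes compared were the 19035 with a value above 0 in at least 2 of the 4 G3BP2 libraries. Of these, 17651 were above 0 in all 4 libraries, 969 in 3 and 415 in 2. The other 907 genes did not pass, with 581 at 0 in every G3BP2 library and 326 above 0 in 1.

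The 4 libraries were 2 of untreated cells and 2 of cells given sodium arsenite (AS), all from unmodified SH-SY5Y precipitated with an antibody to G3BP2. No genotype, knockdown or transgene separated the groups, and nothing in the labels said whether the duplicates came from separate cultures, so p-values here measure the spread between these samples, which may be technical. The eCLIP labels, those of untreated cells included, named 50 mM arsenite for 1 h, while the label of the AS-treated RNA-seq library named 500 μM for 1 h. The methods of the paper give the latter dose and time for AS treatment of the cells, so the labels and the methods disagree on the eCLIP libraries. For context the series also held G3BP1 eCLIP under the same treatments (2 libraries each), rRNA-depleted RNA-seq without and with AS, and TPM of cells after control siRNA (siCtrl) or G3BP2 siRNA, of AS-treated lysate (Total) and of stress granule cores (SG), with 1 library each. The labels gave 1 size-matched input per treatment and replicate number, shared by the G3BP1 and G3BP2 libraries. Whether the input enters the deposited values is not given in the sources used here, so the comparisons of the 2 proteins may not be independent of each other.

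G3BP2 is a cytoplasmic RNA-binding protein and a close paralog of G3BP1. When arsenite blocks translation initiation, untranslated mRNAs and proteins gather in stress granules, and the G3BP proteins are the scaffold around which these form. Genes that would answer such a treatment include the immediate-early transcription factors, the heat shock chaperones and the targets of NRF2, the regulator of the oxidative stress response.

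Each deposited value was log10 of a whole number plus 1. That number summed over genes to 26179736 and 10678043 in untreated replicates 1 and 2, and to 26066536 and 7664548 in AS replicates 1 and 2, with between 936 and 1764 genes at 0 per library. For the comparison the 4 libraries were brought to a common total of 15372932, and the result is called the scaled eCLIP value. After this step the median gene of the comparison had between 194 and 207 in the 4 libraries. A difference between AS and untreated is the difference of mean log10(scaled value + 1), and a fold is that difference on the linear scale. Of the markers of the cell line, 17 of 18 had at least 1 TPM in siCtrl cells, against 4 of 22 markers of other cell types. All 22 of the latter were nonetheless among the genes compared: VWF, an endothelial gene at 0.0154 TPM, had scaled eCLIP values of 888 and 720 (untreated) and of 934 and 834 (AS), and GFAP, an astrocyte gene at 0 TPM, had 689 and 546 against 646 and 564.

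The genes that stood furthest apart between the treatments were ANAPC11 and EIF6, and the sequences shown here are from these and, for contrast, from a gene lower after AS. The 9-base words CCAGCCTGG and CCAGGCTGG are the DNA forms of the palindromic consensus described for G3BP1 and G3BP2 eCLIP peaks. Each is the reverse complement of the other, and both were searched in the span of every gene on GRCh38, where a match on either strand is the same match. The match is in capitals and the 8 bases on either side are in lower case, 5′ to 3′ on the strand of the gene. ANAPC11 is on the plus strand of chromosome 17, from 81890790 to 81900991, and held 13 matches. The match shown is in an untranslated exon.
ANAPC11, chr17:81894301-81894325: gatgtttcCCAGGCTGGgttcggac

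EIF6 is on the minus strand of chromosome 20, from 35278907 to 35284985, and held 7 matches, all in introns, of which 1 is shown.
EIF6, chr20:35283594-35283618: tgtgttgcCCAGCCTGGccttgatc

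COX14, on the plus strand of chromosome 12 from 50112082 to 50120457, was lower after AS and held 14 matches, of which an intronic one is shown. SRP14, also lower, held 0, which says only that these letters are not in its span.
COX14, chr12:50119710-50119734: ccagcagtCCAGGCTGGtccatgcc

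The words were common. They stood in the spans of 16876 of the 18993 genes of the comparison with an annotated span (88.9%), at 4.23 matches per 10 kb. Among the genes higher after AS at an unadjusted p under 0.05 the share was 95.1%, and among those lower it was 93.8%, with 5.87 and 5.79 matches per 10 kb and median spans of 29100 and 28600 bp. Among the genes whose groups did not overlap by 2-fold it was 76.0% of those higher and 68.3% of those lower, below the share over all genes, with median spans of 11400 and 7630 bp against 29600 bp. A match is a description of the sequence and not evidence of binding, since positions within genes were not part of the values.

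ANAPC11 encodes the RING subunit of the anaphase-promoting complex, the ubiquitin ligase that drives exit from mitosis. Its deposited log10 values were 0.70 and 0.48 in untreated libraries and 2.86 and 2.5 in AS libraries. On the scaled eCLIP value this was 2.35 and 2.88 against 426 and 632. Both untreated libraries were near 0, both AS libraries were far from it, and the groups did not overlap. The difference was 2.16 ± 0.135 on the log10 scale (SE from limma), a 144-fold higher value + 1, with an unadjusted p of 1.99e-05 and a Benjamini-Hochberg adjusted p of 0.378. Per kilobase of gene span, ANAPC11 had 0.23 and 0.282 in untreated libraries, above 1.9% and 3.85% of the genes compared, and 41.8 and 61.9 after AS, above 98.7% and 99.3% of them.

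EIF6 encodes a factor that keeps the large ribosomal subunit from joining the small one and that is needed to mature the former. Its untreated values were listed as 0 and 0, and its deposited log10 values after AS were 2.28 and 2.06. The scaled eCLIP values after AS were 112 and 229. The log10 difference was 2.21 ± 0.202 with an unadjusted p of 0.000125 and an adjusted p of 0.791; no fold is given against values of 0, and the difference itself depends on the added 1. EIF6 was the single gene listed at 0 in both untreated libraries with a scaled value of at least 50 in both AS libraries, and no gene had the reverse pattern. With the limit for the low group at 5 in place of 0, the genes were ANAPC11, EIF6 and TSPO, again with 0 genes in the reverse direction. Between duplicates of 1 group, 37 and 36 genes went from at most 5 to at least 50 in the untreated libraries, in either direction, and 26 and 47 in the AS libraries, while the comparison held 19035 genes. These counts set 1 library against 1, and the pattern of ANAPC11, EIF6 and TSPO was required in both libraries of each group, so the counts are not alike.

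The RNA of these genes was high in all conditions. ANAPC11 had 298 TPM and EIF6 241 TPM in siCtrl cells, and their rRNA-depleted RNA-seq signals, from 1 library each, were 187 and 171 without and 206 and 209 with AS. Both were lower in SG cores (28.3 and 43.2 TPM) than in the Total lysate (324 and 288 TPM). The genes beside them did not share the pattern. ALYREF, an mRNA export adaptor that overlaps the start of ANAPC11 on the other strand, had 1.17 and 2.88 in untreated and 0 and 0 in AS libraries, and PCYT2, an enzyme of phosphatidylethanolamine synthesis that overlaps its end, had 198 and 46.1 against 229 and 140. MMP24OS, next to EIF6, had 658 and 1220 against 934 and 1150. The smallest unadjusted p among the 8 overlapping or nearest genes was 0.0662, for SIRT7, a deacetylase gene beyond PCYT2, whose difference was -0.24 ± 0.104.

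In G3BP1 eCLIP both genes were also higher after AS, from a higher start. ANAPC11 had 28.2 and 158 in untreated and 479 and 943 in AS libraries of G3BP1, and EIF6 had 17.9 and 31.7 against 109 and 162. The AS values of both proteins were alike in size, while the untreated values of G3BP2 were the lower ones. The G3BP2 difference exceeded that of G3BP1 by 1.16 ± 0.337 for ANAPC11 (unadjusted p of 0.0106) and by 1.48 ± 0.259 for EIF6 (unadjusted p of 0.000754), with an adjusted p of 1 for both in limma's interaction test over 8 libraries.

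Across all 19035 genes no gene passed an adjusted p of 0.05 in limma (smallest adjusted p, 0.378, for ANAPC11). At an unadjusted p under 0.05 there were 329 genes higher (1.73% of those tested) and 306 lower (1.61%). Groups that did not overlap with at least a 2-fold difference were found for 545 genes in the upward direction (2.86%) and 562 in the downward direction (2.95%). The median difference over all genes was -0.002. Without scaling between libraries the median was -0.075, and 2 genes passed the adjusted threshold, ANAPC11 and EIF6, each with an adjusted p of 0.0103.

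**Figure D1:**
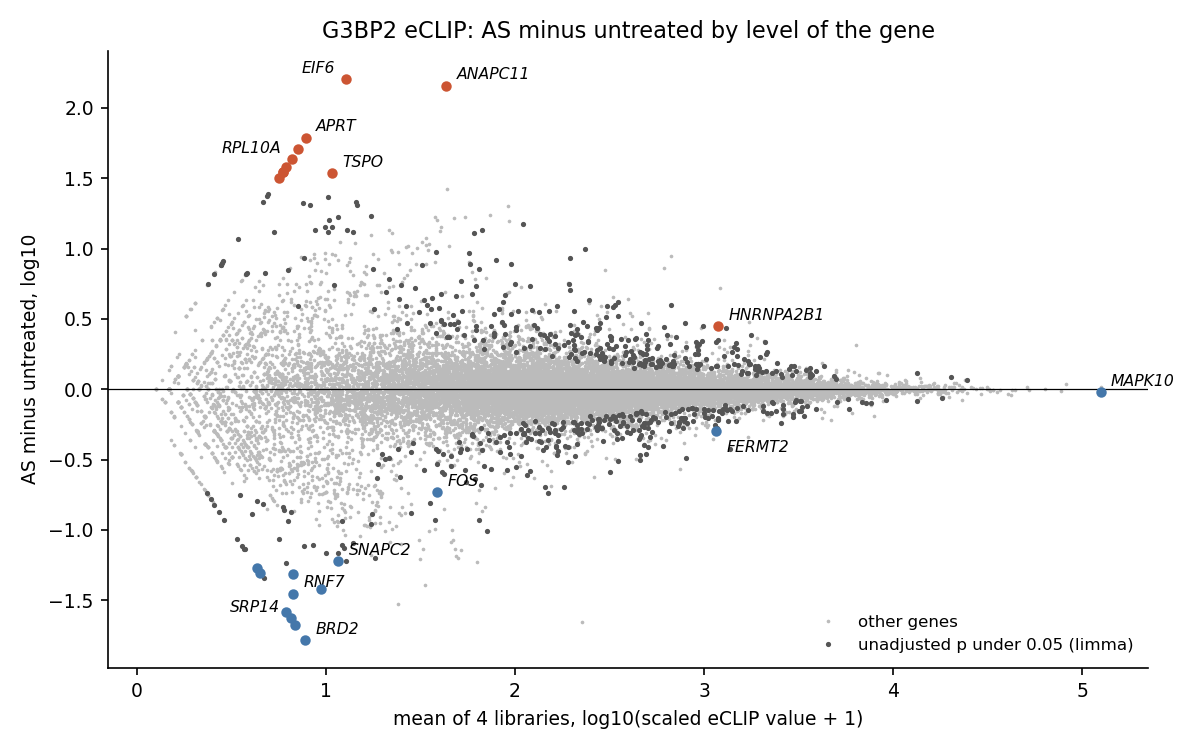
Each point is a gene of the comparison, with the mean log10(scaled eCLIP value + 1) of the 4 G3BP2 libraries on the x axis and the AS minus untreated difference (log10) on the y axis; dark grey points have an unadjusted p under 0.05 in limma, and orange and blue points are named genes above and below 0. The spread narrows from left to right, from an SD of 0.395 below a mean of 1 to 0.0676 at 3 and above, and ANAPC11 and EIF6 lie above all other genes.

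The size of the differences followed the level of the gene. The SD of the difference was 0.395 over the 1805 genes with a mean log10 value under 1, 0.277 over 5072 genes from 1 to 2, 0.131 over 8932 genes from 2 to 3 and 0.0676 over the 3226 genes at 3 or more. The SD of the log10 difference between duplicates was 0.566 (untreated) and 0.596 (AS) in the lowest range and 0.0997 and 0.0915 in the highest, and without any effect of treatment a difference between means of 2 libraries would have a smaller SD than a difference between single libraries. Of the lowest range 21.5% of the genes had groups that did not overlap with a 2-fold difference, and of the highest 0.434%.

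The difference seen in replicate 1 said little about that in replicate 2. Over all genes the same sign was found in both for 49.7% of them, and the correlation across genes, which are not independent replicates, was -0.00131, with values between -0.0437 and 0.0405 within the ranges of level. ANAPC11 (2.11 in replicate 1 and 2.21 in replicate 2) and EIF6 (2.05 and 2.36) stood outside the cloud of the other genes in both. Their groups did not overlap, which alone gives the same sign in both replicates.

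**Figure D2:**
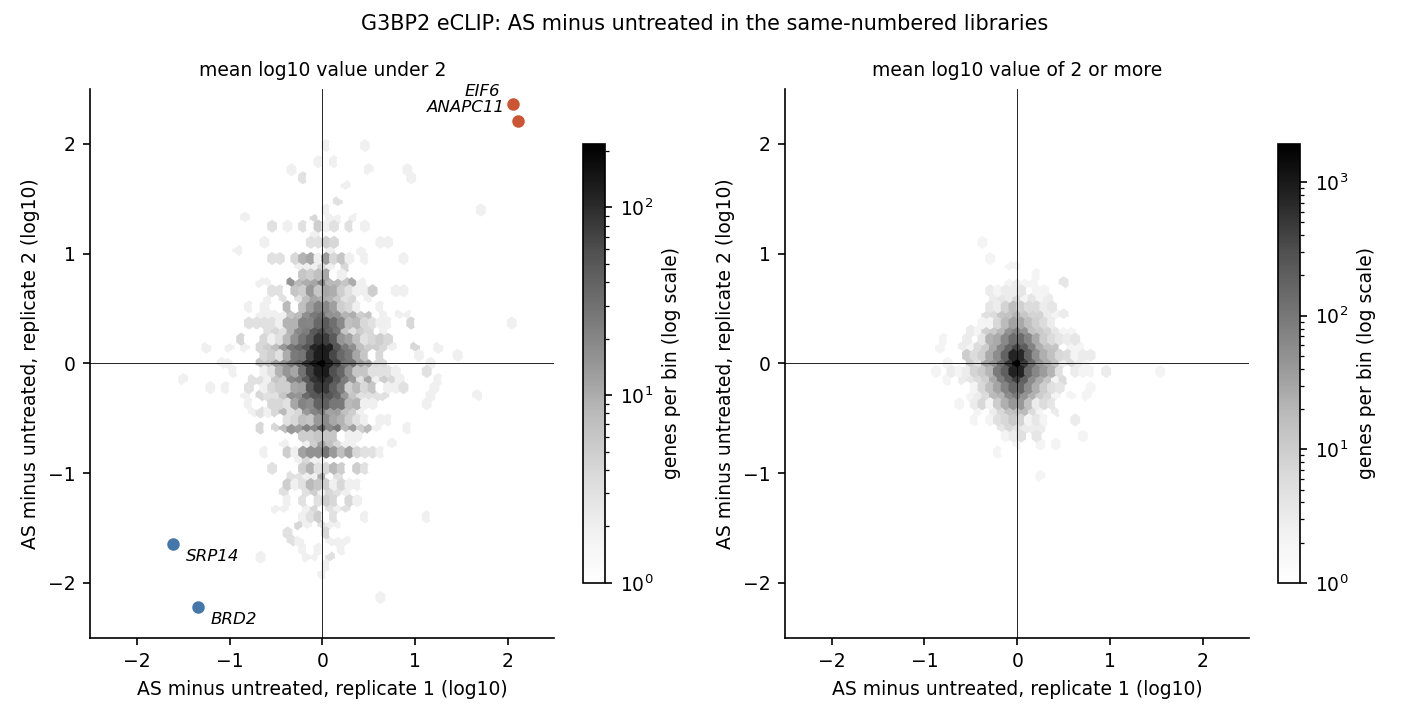
AS minus untreated (log10) in the replicate 1 libraries on the x axis and in the replicate 2 libraries on the y axis, as counts of genes per hexagon on a log grey scale, for genes with a mean log10 value under 2 (left) and of 2 or more (right). The cloud is centred on 0 without a slope and is taller than wide on the left, and ANAPC11, EIF6, SRP14 and BRD2 lie off it in the same direction in both replicates. The groups of these named genes do not overlap, which fixes the shared direction.

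Of the 10 genes furthest above untreated after AS, 8 were listed at 0 in both untreated libraries. Among them were APRT, which encodes the adenine salvage enzyme (37.7 and 96.3 after AS), SOD1, the cytosolic superoxide dismutase (47.2 and 24.1), RPL10A, a protein of the large ribosomal subunit (11.8 and 146), and PSME2, a subunit of the proteasome activator PA28 (16.5 and 56.2). TSPO, a receptor of the outer mitochondrial membrane, had 2.35 and 0 in untreated and 68.4 and 56.2 in AS libraries. Their unadjusted p-values lay between 0.000741 and 0.00981, and their smallest adjusted p was 0.978. APRT, SOD1, RPL10A, PSME2 and TSPO had between 73.3 and 981 TPM in siCtrl cells, and their rRNA-depleted signals differed between treatments by less than 2-fold.

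The remaining 3 of these 10 genes were neighbours. PRSS33, PRSS41 and PRSS21, which encode serine proteases, stand side by side on chromosome 16, from 2783953 to 2826304. PRSS33 had 62.5 and 40.1 after AS, PRSS41 had 47.2 and 24.1, and PRSS21 had 109 and 12, and all 3 were listed at 0 in the untreated libraries of G3BP2. Their RNA was at or near 0 (at most 0.00499 TPM in siCtrl cells). In G3BP1 eCLIP the same genes were also at 0 in both untreated libraries, while PRSS33 had 59.7 and 36.0 after AS and PRSS41 and PRSS21 had 27.1 and 46.1 in AS replicate 1 and 0 in AS replicate 2. The next genes on that side, ZG16B and PRSS22, were at 0 in the same 4 untreated libraries and had 1.18 and 7.67 in AS replicate 1 of G3BP2. On the other side ELOB (3.52 and 8.64 in untreated, 11.2 and 12 in AS libraries) and SRRM2 (122 and 153 against 169 and 177) were above 0 throughout in G3BP2. These 4 genes around the proteases were named after their values were seen. PRSS33, PRSS41, PRSS21, ZG16B and PRSS22, 5 genes in all, were the longest run of neighbours among the 101 genes of the table at 0 in all 4 untreated libraries of both proteins and above 0 in at least 1 AS library of G3BP2.

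**Figure D3:**
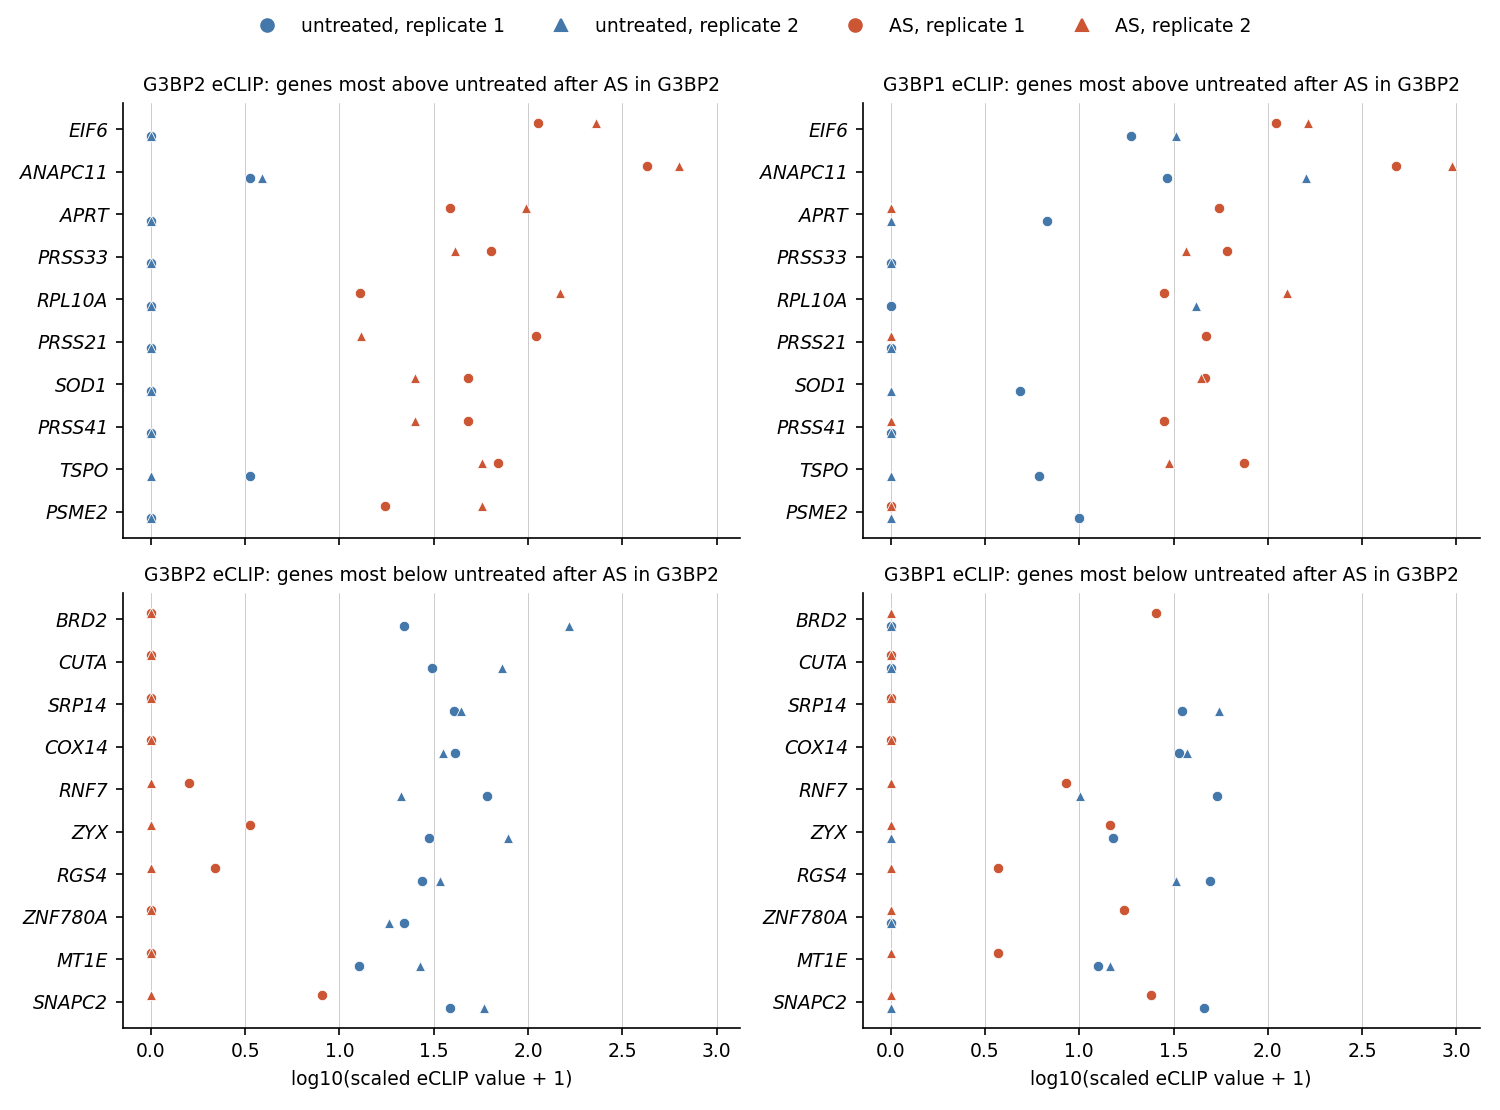
log10(scaled eCLIP value + 1) of each library for the 10 genes most above (top) and the 10 most below (bottom) untreated after AS in G3BP2, shown for the G3BP2 libraries (left) and the G3BP1 libraries (right); blue is untreated, orange is AS, circles are replicate 1 and triangles replicate 2. On the left the colours are separate for every gene because the genes were chosen so; on the right they are separate for both replicates of EIF6, ANAPC11, PRSS33, SOD1, TSPO, SRP14, COX14, RNF7, RGS4 and MT1E.

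Of the 10 genes furthest below untreated after AS, 6 were listed at 0 in both AS libraries. SRP14, a subunit of the signal recognition particle, had 39.3 and 43.2 in untreated libraries and COX14, an assembly factor of cytochrome c oxidase, had 39.9 and 34.6. These were also at 0 in both AS libraries of G3BP1, from 34 and 54.3 (SRP14) and 32.7 and 36.2 (COX14) in untreated ones. RGS4, which limits signalling of G protein-coupled receptors, had 26.4 and 33.1 against 1.18 and 0 in G3BP2, and 48.1 and 31.7 against 2.71 and 0 in G3BP1. MT1E, a metallothionein, had 11.7 and 25.9 against 0 and 0. The G3BP1 difference of SRP14, COX14 and RGS4 was within 0.03 of that of G3BP2 on the log10 scale.

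CUTA, BRD2 and ZNF780A had no such pattern in G3BP1. CUTA, a gene of the copper tolerance family, had 29.9 and 72.0 in the untreated libraries of G3BP2, 0 after AS, and 0 in all 4 libraries of G3BP1. BRD2, a bromodomain protein that reads acetylated histones, had 21.1 and 164 against 0 and 0, while in G3BP1 only AS replicate 1 was above 0, at 24.4. ZNF780A, a zinc finger gene, had 21.1 and 17.3 against 0 and 0 in G3BP2 and 16.3 in AS replicate 1 of G3BP1 alone. ZYX (zyxin, a focal adhesion protein), RNF7 (a RING subunit of cullin ligases) and SNAPC2 (a subunit of the complex that transcribes small nuclear RNA genes) had at most 7.08 in an AS library and at least 20.2 in an untreated one. Of these RNF7 was also lower in G3BP1 (52.6 and 9.06 against 7.46 and 0), while ZYX and SNAPC2 overlapped there. The unadjusted p-values of these 10 genes lay between 0.00069 and 0.0172, and the smallest adjusted p was 0.978.

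BRD2 and CUTA lie in the major histocompatibility region. Of the 200 genes of the table between 28 and 34 Mb on chromosome 6, 115 were listed at 0 in all 8 eCLIP libraries and 41 entered the comparison. None of these was higher at an unadjusted p under 0.05 (1.73% over all genes) and 4 were lower (9.76%, against 1.61% over all genes), namely CUTA, BRD2, HLA-DQA1 and VARS1, the last 2 named after their values were seen. The region was reached through BRD2 and CUTA, which count among the 4. Its share of lower genes is therefore raised by that choice and is not a result about the region. The number of genes of the region above 0 was 50 and 38 in the untreated libraries of G3BP2 and 45 and 34 in the AS libraries. The longest run of neighbours at 0 in all 4 AS libraries of both proteins and above 0 in untreated G3BP2 was 6 genes of this region, HSPA1B, NEU1, SLC44A4, EHMT2, C2 and ZBTB12, from 31827738 to 31945673, again named after their values were seen.

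In all, 30 genes were at 0 in both untreated libraries and above 0 in both AS libraries of G3BP2, and 49 had the reverse pattern. The same pattern was found in G3BP1 for 7 of the 30 and 14 of the 49. The median span of these genes was 4590 and 3160 bp, against 29600 bp for all genes of the comparison. Zeros also fell in single libraries: of the 13236 to 13326 genes with a scaled value of at least 50 in the other 3 G3BP2 libraries, 8 and 18 were at 0 in untreated replicates 1 and 2 (0.0603% and 0.136%), and 4 and 16 in AS replicates 1 and 2 (0.0302% and 0.12%). A pseudogene named after the gene was annotated for 3 of the 10 genes furthest above (RPL10A, SOD1 and PSME2) and 3 of the 10 furthest below (SRP14, RNF7 and ZYX), against 10.6% of all genes of the comparison, and reads of such copies could have been split between them. None was annotated for ANAPC11 or EIF6. The part of zeros, of copies and of region in the differences was not tested.

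Gene groups were read by the number of members at an unadjusted p under 0.05, by their median difference and beside the same values for all genes (1.73% higher, 1.61% lower, median -0.002). All genes include 5854 under 1 TPM in both the SG and the Total library, with shares of 0.325% and 0.342%. In the other classes of SG content the shares were 1.74% to 5.35% higher and 1.7% to 3.76% lower. Lists of expressed genes therefore stand beside a background that is low for them. Groups did not overlap by 2-fold for 2.86% (higher) and 2.95% (lower) of all genes. No member of any group passed the adjusted threshold.

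**Figure D4:**
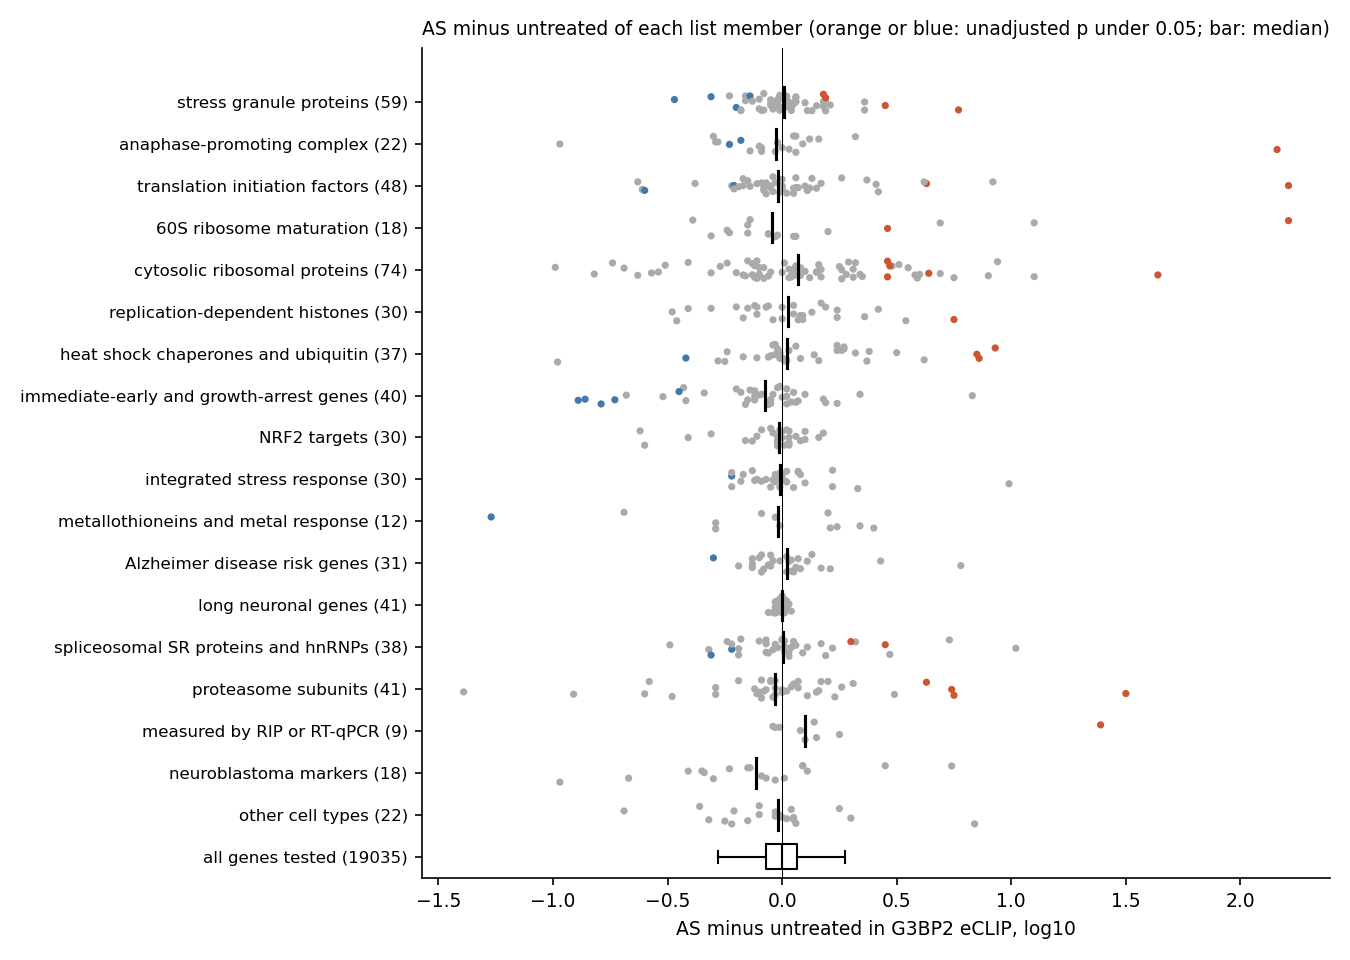
AS minus untreated in G3BP2 eCLIP (log10, x axis) for every measured member of each gene list, with the number of members in parentheses; coloured points have an unadjusted p under 0.05 in limma (orange higher, blue lower), the vertical bar is the median of the list, and the box and whiskers at the bottom are the quartiles and the range within 1.5 interquartile ranges of all 19035 genes. Most medians lie near 0, that of the long neuronal genes with the narrowest spread, and the immediate-early genes carry 5 blue and no orange points.

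The immediate-early and growth-arrest genes, the transcription factors and brakes that cells switch on within minutes of a stimulus, were the group with the most members lower. Of 40 measured, 0 were higher and 5 lower (12.5%), 1 and 9 had groups that did not overlap by 2-fold in the upward and the downward direction (2.86% and 2.95% over all genes), and the median was -0.077 in G3BP2 and -0.144 in G3BP1. The median level of the list was a log10 value of 1.52. Of all genes from 1 to 2, 9.13% did not overlap by 2-fold, both directions together. FOS, a subunit of the AP-1 transcription factor, had 71.6 and 111 in untreated libraries and 30.1 and 8.02 after AS, a difference of -0.73 (unadjusted p of 0.0218). GADD45A, a DNA damage and growth-arrest gene, had 49.3 and 43.2 against 17.7 and 14, and JUND, another AP-1 subunit, had 8.22 and 11.5 against 0 and 2.01. JUNB (4.70 and 21.6 against 1.18 and 0) and EGR1 (10.6 and 21.6 against 0 and 4.01), both transcription factors named after their values were seen, completed the 5. In G3BP1 the differences of FOS, JUNB and EGR1 were -0.77, -0.90 and -1.0, while that of GADD45A was 0.21.

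The RNA levels of this group differed in the opposite direction. Of the 34 members with an rRNA-depleted RNA-seq signal, 21 were over 2-fold higher in the AS-treated library and 0 over 2-fold lower, with a median log2 ratio of 1.40 against 0.27 for all genes. FOS went from a signal of 0.768 to 236 and EGR1 from 0.408 to 134, from 1 library each. JUN, with a log2 ratio of 4.50, had an eCLIP difference of -0.52 (unadjusted p of 0.0531). The count of lower members was 2, 0, 4 and 4 without untreated replicate 1, untreated replicate 2, AS replicate 1 and AS replicate 2, and the median was -0.107, 0.006, 0.04 and -0.135, so that its sign turned without untreated replicate 2 and without AS replicate 1. Over all 445 genes whose RNA was over 2-fold higher after AS, 4 were higher (0.899%) and 14 lower (3.15%) in G3BP2 eCLIP, with 8 (1.8%) and 28 (6.29%) not overlapping by 2-fold and a median of -0.0233. The shares not overlapping by 2-fold over all genes were 2.86% and 2.95%.

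**Figure D5:**
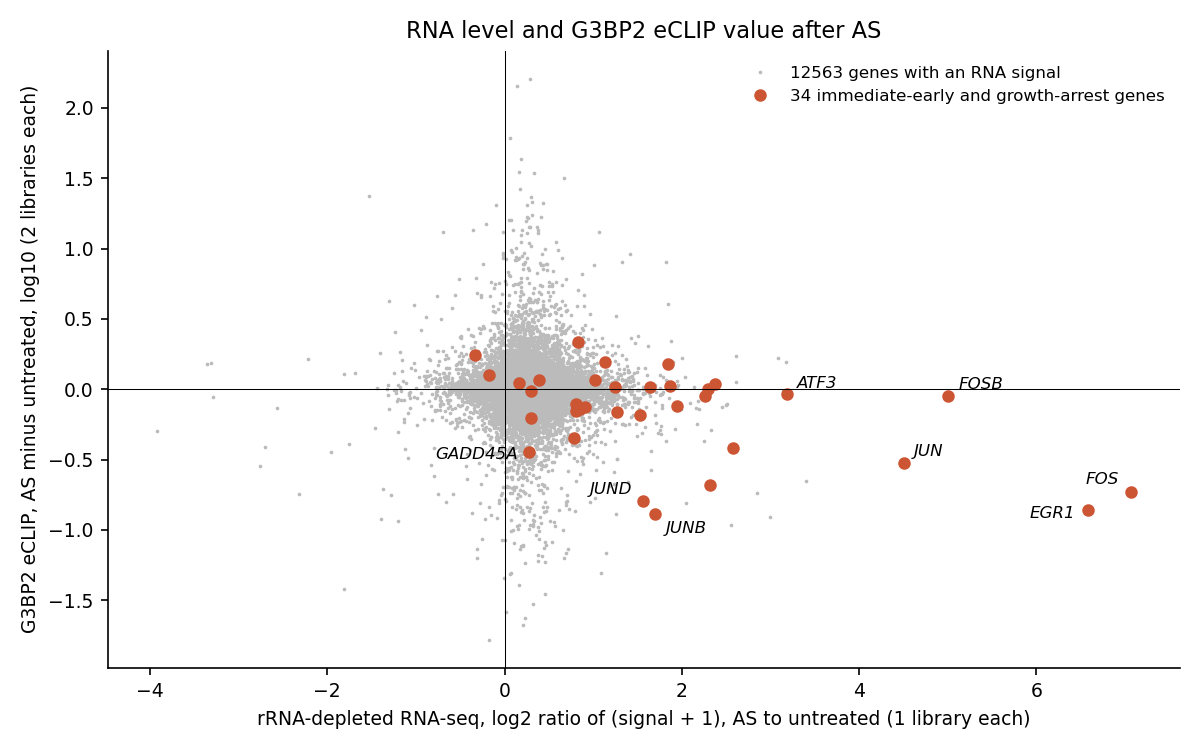
log2 ratio of rRNA-depleted RNA-seq signal + 1 between AS-treated and untreated cells (x axis, 1 library each) against AS minus untreated in G3BP2 eCLIP (log10, y axis) for 12563 genes in grey and 34 immediate-early and growth-arrest genes in orange. FOS and EGR1 lie at the lower right, with log2 RNA ratios of 7.07 and 6.58 and eCLIP differences of -0.73 and -0.86, and FOSB and ATF3 lie near 0 on the y axis.

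Several genes of the protein synthesis machinery were higher after AS at an unadjusted p under 0.05. Of 74 cytosolic ribosomal protein genes, 5 were higher (6.76%) and 0 lower, 11 and 3 did not overlap by 2-fold (2.86% and 2.95% over all genes), and the median was 0.068 in G3BP2 and 0.031 in G3BP1. The median level of the list was a log10 value of 1.59. Of all genes from 1 to 2, 9.13% did not overlap by 2-fold, both directions together. Besides RPL10A these were RPL18 (29.9 and 18.7 against 88.5 and 56.2), RPLP0, a protein of the ribosomal stalk (35.8 and 72.0 against 109 and 199), RPL13 and RPS27A. The median was 0.005 without scaling, with 2 higher and 1 lower. The median was 0.033 without untreated replicate 1 and 0.039 without untreated replicate 2, with 39 and 45 of the 74 genes above 0. It was 0.202 without AS replicate 1 and 0.012 without AS replicate 2, with 50 and 37 above 0. The sign of the median was thus kept, while the split of 5 to 0 did not hold in any of these fits. RPL18 was the member that differed most from G3BP1, where the untreated values were 0 and 0 and the AS values 88.8 and 324. Most ribosomal protein genes have processed pseudogenes with nearly the same sequence, and their values are uncertain for that reason.

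Among 48 translation initiation factors, 2 were higher and 2 lower, with a median of -0.02. EIF6 and EIF3I, a subunit of the scaffold factor eIF3 (96.9 and 143 against 309 and 834), were higher. EIF5, which triggers GTP hydrolysis on the scanning ribosome (50.5 and 135 against 14.2 and 28.1), and EIF2B3, a subunit of the exchange factor of eIF2 (1540 and 1470 against 725 and 1180), were lower. Of the 18 factors of 60S maturation 2 were higher, EIF6 and RPLP0, and 0 lower, with a median of -0.045.

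Protein degradation and folding had a few members on the upper side. Of 41 proteasome subunits, 4 were higher (9.76%) and 0 lower, yet the median was -0.027. These were PSME2, PSMD7 (11.7 and 18.7 against 44.2 and 102), PSMD12 (35.8 and 180 against 380 and 550), both of the regulatory particle, and PSMC1, an ATPase of its base (12.3 and 51.8 against 92.6 and 223, named after its value was seen). The counts were 7 higher and 2 lower without untreated replicate 1, 3 and 2 without untreated replicate 2, 2 and 4 without AS replicate 1, 2 and 2 without AS replicate 2, and 1 and 1 without scaling, so the split of 4 to 0 was lost under each of these. Of 37 heat shock chaperones and ubiquitin genes, 3 were higher and 1 lower, with a median of 0.023. AHSA1, the activator of the HSP90 ATPase, had 9.4 and 54.7 against 137 and 213, HSPE1, the mitochondrial co-chaperonin, had 17 and 1.44 against 45.4 and 48.1, and CHORDC1, an HSP90 partner, had 5.87 and 0 against 18.9 and 24.1. DNAJA2, an HSP70 co-chaperone, was lower at 48.2 and 30.2 against 11.8 and 16. In the anaphase-promoting complex and its regulators, 1 of 22 was higher, ANAPC11, and 2 were lower, the checkpoint kinase gene BUB1B (445 and 443 against 245 and 281) and the substrate-recruiting subunit ANAPC10 (3150 and 3300 against 1860 and 2470), with a median of -0.028.

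The transcripts of stress granule proteins were split. Of 59, 4 were higher and 4 lower (6.78% each), and the median was 0.008. Without scaling 0 were higher and 0 lower. The higher count was 8 without untreated replicate 1 and 2 without AS replicate 2, and the lower count was 1 without untreated replicate 2. TIA1, a nucleator of stress granules, had 888 and 1140 against 632 and 632, and HNRNPA1, a nuclear RNA-binding protein, had 388 and 628 against 209 and 281, although 74 pseudogenes are named after it. On the upper side HNRNPA2B1, an hnRNP that binds m6A-marked RNA, had 535 and 929 against 1620 and 2410, USP10, a deubiquitinase that binds the G3BP proteins, had 1580 and 1250 against 2000 and 2300, and YBX3, a cold shock domain protein, had 362 and 314 against 576 and 479. The RNA of YBX3 was at 0 TPM in siCtrl cells. The own transcript of G3BP2 had 4160 and 2740 against 4370 and 6200, and that of G3BP1 had 1860 and 847 against 1950 and 4290, with unadjusted p-values of 0.0661 and 0.0706. Of 38 spliceosomal SR proteins and hnRNPs 2 were higher, HNRNPA2B1 and HNRNPK (94.5 and 64.8 against 151 and 160), and 2 lower, HNRNPA1 and the splicing regulator TRA2A (573 and 599 against 309 and 399), with a median of 0.004.

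The classical targets of an oxidative and proteotoxic insult were close to the background. Of 30 NRF2 targets 0 passed an unadjusted p of 0.05 in either direction, with a median of -0.014. The 2 with the largest values were BACH1, a repressor of this response (3010 and 2740 against 3090 and 3030), and TXNRD1, thioredoxin reductase (2040 and 1340 against 2460 and 1790). Of 30 genes of the integrated stress response 0 were higher and 1 lower, PHGDH, which opens serine synthesis (1470 and 1580 against 1120 and 744), with a median of -0.007. Of 12 metallothioneins and metal-response genes 1 was lower, MT1E, with a median of -0.02. Of 30 replication-dependent histone genes 1 was higher, H2BC8 (0 and 0 against 5.31 and 4.01), with a median of 0.022. Of 31 Alzheimer disease risk genes 0 were higher and 1 lower, FERMT2, which encodes the integrin activator kindlin-2. Its values were 1810 and 1470 in untreated and 833 and 814 in AS libraries of G3BP2, a difference of -0.30 ± 0.0497 (unadjusted p of 0.00199), and 1570 and 1240 against 1050 and 555 in G3BP1. The neuroblastoma markers had 0 of 18 members past an unadjusted p of 0.05 and a median of -0.118, the lowest of the lists. Of these markers 6 were above 0, and 0 and 3 did not overlap by 2-fold in the upward and the downward direction. Their median in G3BP1 was -0.066. The markers of other cell types had 0 of 22 past that p and a median of -0.02. No gene of the mitochondrial genome was analysed here.

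The genes with the largest values differed by at most 0.04 on the log10 scale. MAPK10, a neuronal JNK kinase, had 131000 and 125000 in untreated and 129000 and 115000 in AS libraries, KCNMA1, the BK potassium channel, had 126000 and 123000 against 129000 and 127000, and ANK2, a neuronal ankyrin, had 82900 and 73800 against 79600 and 91700. Their spans run from 566190 to 768769 bp, and per kilobase of span they had 217 and 207, 163 and 159, and 146 and 130 in the untreated libraries, against a median of 6.48 and 6.73 over all genes. MAPK10, KCNMA1 and ANK2 had 5.0, 0.0538 and 2.61 TPM in siCtrl cells. Their rRNA-depleted signals without AS were 282, 28.1 and 446, from 1 library. The 41 long neuronal genes had differences between -0.06 and 0.04 and a median of -0.002, with 0 at an unadjusted p under 0.05.

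The transcripts that the study measured by RIP or RT-qPCR were mostly within the spread of the duplicates. SPTBN1, a spectrin, had 1170 and 1040 in untreated and 1410 and 1260 in AS libraries (difference 0.08 ± 0.0456), PRKCA, a protein kinase C, had 4880 and 5350 against 4680 and 5400 (-0.01 ± 0.0342), TCF4, a neuronal transcription factor, had 41600 and 46600 against 42700 and 37300 (-0.04 ± 0.0277), and HTT, the huntingtin gene, had 2880 and 2870 against 2820 and 2520 (-0.03 ± 0.0341). HMOX2, the constitutive heme oxygenase, had values of 0 and 0 in untreated libraries and of 21.2 and 26.1 after AS (unadjusted p of 0.00202, adjusted p of 0.995), but in G3BP1 it had 16.7 and 29.4 in untreated and 0 and 93.6 in AS libraries. EBPL, TPT1 and NGDN had differences between 0.10 and 0.15 with unadjusted p-values of at least 0.169. MIF, a cytokine gene at 870 TPM in siCtrl cells, was listed at 0 in all 8 eCLIP libraries.

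Genes were then grouped by the RNA content of SG cores, using 2-fold differences of TPM + 1 between the SG and the Total library. At an unadjusted p under 0.05 the shares over all genes were 1.73% (higher) and 1.61% (lower), and 2.86% and 2.95% did not overlap by 2-fold. The 8343 SG-enriched genes had a median difference of -0.0022, with 145 higher (1.74%) and 142 lower (1.70%), and 1.73% and 1.75% did not overlap by 2-fold. The 1197 SG-depleted genes had a median of 0.0027, with 64 higher (5.35%) and 45 lower (3.76%), and groups did not overlap by 2-fold for 9.69% of them in the upward and 8.35% in the downward direction. Their median level was also lower, at a log10 value of 1.76 against 2.54 in SG-enriched genes. The 330 genes lower and the 140 genes higher in RNA after G3BP2 knockdown had medians of -0.0021 and -0.0078. None of these medians was far from that of all genes.

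The difference between the AS effects on G3BP2 and G3BP1 eCLIP was tested as an interaction over all 8 libraries. No gene passed an adjusted p of 0.05 in limma (smallest adjusted p, 0.505), and 136 did so at an unadjusted p under 0.05 (0.714%), of which 56 had the larger difference in G3BP2 and 80 the smaller. Besides EIF6 and ANAPC11, among the named genes PSME2, BRD2, CUTA, ZNF780A, YBX3, RPL18 and HNRNPK were among them. YBX3 was higher after AS in G3BP2 (362 and 314 against 576 and 479) and lower in G3BP1 (486 and 666 against 339 and 241), with a difference of 0.49 ± 0.114 (unadjusted p of 0.00368). Its RNA was at or near 0, with 0 TPM in siCtrl cells, 0.00273 in the Total lysate and 0.422 in SG cores. The rRNA-depleted signals of YBX3 were 1.88 without and 1.83 with AS. For RPL18 the G3BP2 difference was the smaller by 1.77 on the log10 scale (unadjusted p of 0.000842), from G3BP1 libraries of which both untreated ones were at 0.

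Replicate 1 libraries of the same treatment resembled each other across the proteins. Over the 6791 genes with an unscaled number of at least 100 in all 8 libraries, the robust SD of the log10 difference was 0.0444 between the G3BP2 and G3BP1 libraries of replicate 1 in both treatments, against 0.0745 between the untreated duplicates of G3BP2 and 0.0887 between its AS duplicates. Between untreated and AS libraries of G3BP2 it was 0.0593 in replicate 1 and 0.0888 in replicate 2. In replicate 2 the G3BP2 and G3BP1 libraries differed by 0.0887 (untreated) and 0.103 (AS), no less than the duplicates of G3BP2 did. When the interaction test took a block for replicate number within each treatment, a choice made after seeing these values, 359 genes reached an unadjusted p under 0.05, and 210 with a block for replicate number alone.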

How the data were processed

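The authors' eCLIP steps were trimming and removal of duplicates (fastp), alignment by STAR to GRCh38.p13, peak calling by CLIPper and normalization to size-matched input, with GENCODE 41 as annotation. The labels' processing notes name HISAT2 2.1.0 and hg38. Each deposited eCLIP value is the log10 of a whole number plus 1, at 2 decimals, not scaled between libraries. The file calls them peaks, and which processing steps they include is not given in the sources used here. The authors' TPM (HISAT2 and StringTie) and the deposited rRNA-depleted signal per transcript, summed per gene, served as context only.

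The whole number was recovered, scaled to the geometric mean of the 4 totals and increased by a pseudocount of 1. limma 3.58.1 in R 4.3.3 (intensity trend, Benjamini-Hochberg adjustment over all genes tested, threshold 0.05) compared AS with untreated over genes above 0 in at least 2 of 4 libraries, without a replicate block. The interaction with G3BP1 was fitted over 8 libraries. The fit of AS against untreated was tested on simulated data, and the interaction fit was not. No count test was used because the deposited log10 values are not known to be reads. Coordinates and matches come from GENCODE 44 and the hg38 reference genome, in which 19910 of 19942 genes were found by ID. Figures were drawn with matplotlib 3.10.9 and tables made with pandas 2.3.3, numpy 2.4.6 and scipy 1.17.1 under Python 3.11.15.

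The genes compared and the gene lists were chosen with earlier results of these data known. Genes named are ANAPC11 and EIF6, the 10 furthest above and below untreated (unadjusted p under 0.05, groups that do not overlap, scaled value of at least 10 in both libraries of the higher group), the 3 largest values per treatment, the transcripts measured by RIP or RT-qPCR, up to 3 members per list and direction, and neighbours of ANAPC11 and EIF6. RPL13, RPS27A, JUN, FOSB, ATF3 and the transcripts of G3BP1 and G3BP2 were named after their values were seen, and further such genes are marked in the text. Alternatives covered scaling, pseudocount, filters, trend, replicate block and leaving out each library. Size-matched input libraries and peak positions were not analysed here. Some genes that meet the rule for named genes and some sequence matches are not reported here.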

Additional observations from a re-analysis of the deposited data

How the results depend on the processing

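The count of 0 genes past the adjusted threshold of limma held under every alternative for G3BP2 except the lack of scaling, with which 2 genes passed, ANAPC11 and EIF6, both at an adjusted p of 0.0103. Without scaling the unadjusted counts were 71 higher and 89 lower, and 203 genes were higher without overlap by 2-fold. A pseudocount of 10 gave 324 higher and 257 lower without overlap. Leaving out 1 library gave 168 to 664 genes higher and 105 to 984 lower at an unadjusted p under 0.05, and 804 to 1343 higher and 842 to 1514 lower without overlap, with 0 past the adjusted threshold each time. The lowest count of higher genes came without AS replicate 2 and the highest without untreated replicate 1, and the lowest and highest counts of lower genes came without untreated replicate 2 and AS replicate 1. A group left with 1 library is assumed to vary like the other.

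The differences of ANAPC11 and EIF6 ranged from 1.62 to 2.24 and from 1.23 to 2.36 over the 13 alternatives, with an unadjusted p under 0.05 in all 13 and an adjusted p between 0.0103 and 0.996.

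Whether the replicate numbers pair the samples was not settled. Deviations of same-numbered untreated and AS libraries of G3BP2 from their group means had r = 0.0628 over the 19035 genes. Over the 6791 genes with an unscaled number of at least 100 in all 8 libraries, untreated and AS libraries differed by a robust SD of 0.0593 in replicate 1 and 0.0888 in replicate 2. It was 0.0894 and 0.087 between differently numbered ones, and 0.0745 and 0.0887 between the untreated and the AS duplicates. A fit with the replicate block had 372 genes above and 317 below untreated at an unadjusted p under 0.05, and 0 passed the adjusted threshold (smallest adjusted p, 0.948). For the difference from G3BP1, 38 genes had an unadjusted p under 0.05 without scaling, 210 with the replicate block, and 359 with the block within each treatment, which was chosen after seeing that same-numbered libraries of the 2 proteins deviated together (r = 0.425 untreated and 0.328 AS). Leaving out 1 library gave 60 to 1407, lowest without AS G3BP2 replicate 2 and highest without AS G3BP1 replicate 1, and 0 to 24 genes past the adjusted threshold. The 24 came without AS G3BP1 replicate 1, were all listed at 0 in the remaining AS G3BP1 library, and 0 of them had an unadjusted p under 0.05 with all 8 libraries. The counts for gene lists under alternatives were also added after seeing the data.

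With 2 libraries per group, 1 of them of 7664548 in total, genes at low values are the least certain. The number behind the values is not known to be reads, so no counting interval is given for it.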

Other observations

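Several genes at middle levels had close duplicates and small unadjusted p-values without being among the genes named by rule. They were chosen after their values were seen, as the genes with the smallest unadjusted p in limma, all of which had an adjusted p of at least 0.791. NOSIP, which binds nitric oxide synthase and acts as a ubiquitin ligase, had scaled G3BP2 eCLIP values of 68.1 and 79.2 (untreated) and of 603 and 895 (AS) (difference 0.995 ± 0.0905 on the log10 scale). NMNAT1, the nuclear enzyme of NAD synthesis, had 90.4 and 82.1 against 417 and 467. PAIP2, a repressor of the poly(A)-binding protein and so of translation, had 55.2 and 46.1 against 302 and 257. ANXA4, a calcium-dependent phospholipid-binding annexin, had 523 and 656 against 1620 and 1670, NDUFA12, a subunit of respiratory complex I, had 274 and 266 against 872 and 726, and NEK7, a mitotic kinase, had 1040 and 995 against 2090 and 1960. None of these values was near 0, and in each gene the AS libraries lay above both untreated ones. Close duplicates and separate groups follow from choosing genes by the smallest p in these same libraries.

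In the other direction TIMMDC1, a complex I assembly factor, had 445 and 369 in untreated and 75.5 and 86.2 in AS libraries (difference -0.70 ± 0.0819). GTF2B, the general transcription factor TFIIB, had 535 and 737 against 169 and 154 (difference -0.59 ± 0.0774), while its rRNA-depleted RNA signal had a log2 ratio of 1.24 between AS-treated and untreated cells, from 1 library each. The G3BP1 differences, for which the labels list the same size-matched input, were 0.81 for NOSIP, 0.64 for NMNAT1, 0.71 for PAIP2, 0.47 for ANXA4, 0.30 for NDUFA12, 0.24 for NEK7, -0.33 for TIMMDC1 and -0.67 for GTF2B.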
